A study of Mus musculus with 12 samples.

Results

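The change of J2 enrichment between genotypes was measured in 8 of the 12 libraries of this series, 4 input and 4 J2 pulldown libraries from 4 mice. J2 is a monoclonal antibody that binds double-stranded RNA largely regardless of its sequence, so a transcript that is more frequent after the pulldown than in the input RNA of the same animal is called enriched. For each gene the quantity is (J2 minus input in DKO) minus (J2 minus input in control), on the log2 scale. It is positive where J2 enrichment was higher in DKO. The other 4 libraries, made with the antibody K1, serve here only for values set side by side.

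All 4 animals were female mice 3 months old, and the material was whole epithelium from the proximal part of the small intestine, released with EDTA. In the 2 DKO animals (KAT2A/KAT2B DKO) the genes Kat2a and Kat2b were deleted by intraperitoneal tamoxifen at 100 mg/kg once a day for 4 days. The 2 control animals received the ethanol and corn oil vehicle alone. The epithelium was collected 2 days after treatment ended. Tamoxifen was given to the DKO animals only, so genotype and tamoxifen cannot be told apart. The line that carries the recombinase is not given in the sources used here.

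KAT2A (GCN5) and KAT2B (PCAF) are related lysine acetyltransferases, best known as the enzymes of the SAGA and ATAC complexes that acetylate histone tails. Long double-stranded RNA is a signal of viral infection, and cells read it through sensors such as MDA5, RIG-I, TLR3 and PKR. A cell's own sources of double-stranded RNA, long or short, include transcription of both strands of the mitochondrial genome, inverted repeats within a transcript, and folded noncoding RNAs. The design of the series is a test of differential enrichment of such RNA between the genotypes.

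Depth differed between the groups compared. Counts assigned to genes numbered 10307281 to 11474107 in input libraries, while control J2 libraries held 15359376 and 13308021, and DKO J2 libraries 5826361 and 2691285. The DKO J2 pair also stood apart from the rest in its spread: the Pearson correlation of log2 CPM (counts scaled to library size) across genes was 0.8997 between its 2 libraries, against 0.984 to 0.990 within the other 3 groups. Reads aligned to several places, which are not counted to genes, made up 15.8% and 29.5% of the listed reads in DKO J2, 5.54% and 5.98% in control J2 against 6.97% to 8.05% in input. Depth, multiple alignment and the genotype moved together in the J2 libraries, and their part in the results was not tested. The same 4 animals underlie both sides of each comparison. The test used for the calls has no term for the animal. Its p-values measure the spread between libraries within the 4 groups, as if input and J2 of a mouse were independent.

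Of 15923 genes tested, 432 were called (edgeR quasi-likelihood test, Benjamini-Hochberg adjusted p under 0.05), which is 2.71% of the genes. J2 enrichment was higher in DKO for 123 of them (0.772%) and lower for 309 (1.94%). Calls in the higher direction thus made up 28.5%, against 10.5% without TMM scaling and 18.3% with all libraries thinned to the depth of the smallest. With the animal as a block, which pairs each pulldown with the input of the same mouse, 0 genes were called. The smallest adjusted p was then 0.0712, and 4074 genes had an unadjusted p under 0.05, against 4120 without the block. The 432 genes had adjusted p-values between 0.0712 and 0.0951 in the blocked fit, and all 432 had the same direction in it. Every call described below is from the fit without the block and is lost with it. Leaving out either control animal also left 0 calls. Without the first DKO animal 6990 genes were called and without the second 4518.

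The groups did not overlap in any called gene: both DKO animals lay beyond both control animals in the same-animal J2 minus input value. That holds for a large share of all genes, since 27.4% of the 15923 were higher in both DKO animals than in both controls and 33.1% were lower. The 2 directions started from different positions. Among the 309 genes with lower J2 enrichment in DKO, 278 were above input in both control animals and 244 were below input in both DKO animals. Among the 123 with higher enrichment, 100 were below input in both control animals and 117 were above input in both DKO animals. Most calls were thus genes whose J2 enrichment crossed the level of input between the genotypes. Of all 15923 genes tested, 6749 were above input in both control animals. The calls were chosen by the difference between these same values, so their positions follow in part from that choice.

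**Figure D1:**
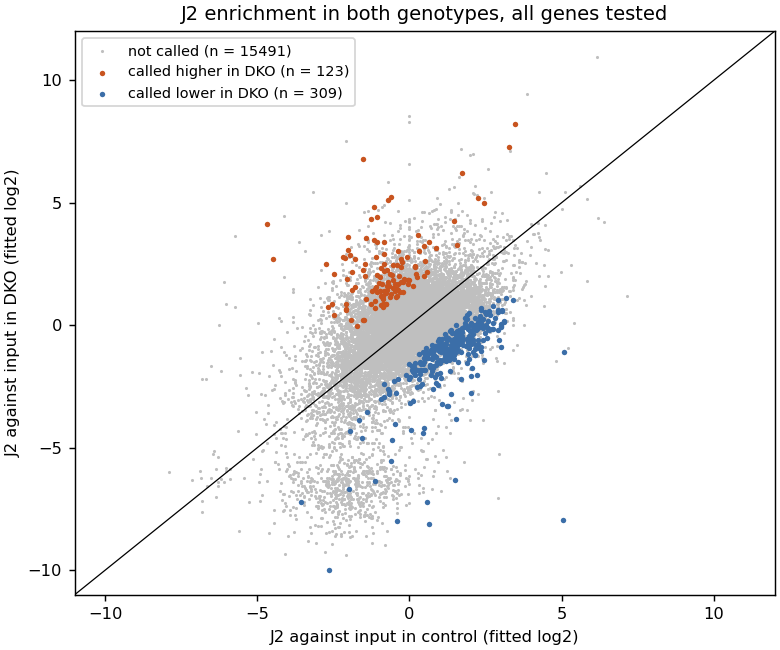
Fitted J2 enrichment over input (log2) in control (x axis) and in DKO (y axis) for all 15923 genes tested, with the 123 genes called higher in orange, the 309 called lower in blue and the line of equality in black. Called lower genes lie mainly to the right of 0 in control, and called higher genes mainly above 0 in DKO. The grey cloud near the bottom holds genes with few or no counts in DKO J2, where the fitted value depends on the prior count.

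The deleted genes were examined first. Kat2b (chromosome 17, 53566861 to 53672720, plus strand, GRCm38) had 359 and 343 input counts in control against 118 and 114 in DKO. In J2 it had 1164 and 904 counts against 126 and 74. Its same-animal J2 minus input value was 1.48 and 1.56 in control against 1.71 and 1.46 in DKO, so the groups overlapped, and the difference of enrichment was 0.10 (SE 0.34, adjusted p 0.882). Kat2a (chromosome 11, 100704746 to 100712465, minus strand) had 222 and 228 input counts in control against 84 and 148 in DKO. J2 minus input, animal by animal, was 0.39 and 0.51 against 0.23 and 0.10, a difference of -0.31 (SE 0.42, adjusted p 0.678). Both genes were thus counted less often in DKO input and J2, while their enrichment differed by less than the error of this test. The counts cover whole genes, and RNA from a gene with deleted exons can still be counted.

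A list of 10 structured RNAs, most of them made by RNA polymerase III, had 8 members with enough counts to test. All 8 were above both controls in both DKO animals, as were 27.4% of all genes tested. Called higher were 5 (Rmrp, Rn7s1, Rn7s2, Rn7s6 and Terc), against 0.772% of all genes. The median difference was 3.63, from 3.03 for Rpph1 to 5.82 for the sparsely counted Rmrp, while the median of all genes tested was 0.00. Rny1 and Rny3 did not pass the filter on low counts.

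Rn7s1, Rn7s2 and Rn7s6 encode 7SL RNA, the scaffold of the signal recognition particle that directs secretory proteins to the endoplasmic reticulum. Their reads are not independent: near-identical stretches (at least 97% over at least 100 bases) cover the whole of Rn7s1 and Rn7s2 and 73.5% of Rn7s6. The sequence of Rmrp is shown as an example of a called RNA that is known to fold onto itself. It comes from the GENCODE M21 transcripts (GRCm38, chr4:43492788-43493058, minus strand), 5′ to 3′, and the capitals mark the 2 arms of the longest uninterrupted helix in the minimum free energy fold predicted by RNAfold.
Rmrp: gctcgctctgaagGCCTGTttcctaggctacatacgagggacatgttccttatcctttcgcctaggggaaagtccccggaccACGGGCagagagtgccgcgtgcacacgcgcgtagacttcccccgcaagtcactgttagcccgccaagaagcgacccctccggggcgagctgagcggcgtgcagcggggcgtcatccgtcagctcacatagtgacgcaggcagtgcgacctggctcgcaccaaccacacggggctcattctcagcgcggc
In the predicted folds 62.7% of the bases of Rmrp and 61.9% of those of Terc were paired. The longest uninterrupted helix had 6 base pairs in Rmrp and 9 in Terc. These are short helices, and whether J2 bound them was not tested.

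Rn7s2 had 449, 596, 588 and 589 counts in the 4 input libraries (control 1, control 2, DKO 1, DKO 2) and 140, 143, 388 and 997 in the J2 libraries. Scaled to depth, J2 held 9.97 and 12.02 CPM in control against 104 and 326 CPM in DKO, while input held 37.0 to 50.9 CPM. The same-animal J2 minus input values were -1.87 in both controls and 1.03 and 2.86 in DKO, a difference of 4.06 (SE 0.68, adjusted p 0.0353). Rn7s1 gave 3.47 (SE 0.57, adjusted p 0.0342) and Rn7s6 3.78 (SE 0.61, adjusted p 0.0342). In each of the 3 the second DKO animal was the higher, and input differed little between genotypes.

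Terc is the RNA template of telomerase. It lies at chr3:96414437-96414859 (minus strand). It had 30, 51, 76 and 84 input counts and 31, 32, 125 and 221 J2 counts, with J2 minus input values of -0.15 and -0.47 in control against 2.32 and 3.46 in DKO. The difference was 3.39 (SE 0.59, adjusted p 0.0379). Rmrp, the RNA of the ribonuclease MRP that cleaves precursor ribosomal RNA, was sparse, with 3 to 7 counts in each input library. Its J2 counts were 3 and 5 in control against 16 and 42 in DKO, and the difference of 5.82 (SE 1.1, adjusted p 0.0434) rests on these few counts, with DKO input at the floor of 3 in both animals.

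The 3 other tested members were not called, although their groups did not overlap. Rpph1, the RNA of ribonuclease P, which trims transfer RNA precursors, was the most abundant of the list in J2. It had 60488 and 68374 J2 counts in control against 196558 and 122423 in the shallower DKO libraries, with J2 minus input values of 0.26 and 0.60 against 3.60 and 3.33. Its difference was 3.03 (SE 1.25, adjusted p 0.174). Rn7sk, which holds the elongation factor P-TEFb inactive, had J2 minus input values of -2.10 and -1.99 in control against -1.18 and 2.12 in DKO (difference 3.22, SE 1.54, adjusted p 0.228). The 2 DKO animals thus lay on opposite sides of input for Rn7sk and on the same side for Rpph1. The vault RNA Vaultrc5 had a difference of 4.12 (SE 1.19, adjusted p 0.0893) on 2 to 22 counts per library. The median of the list was 2.91 when the second DKO animal was left out.

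**Figure D2:**
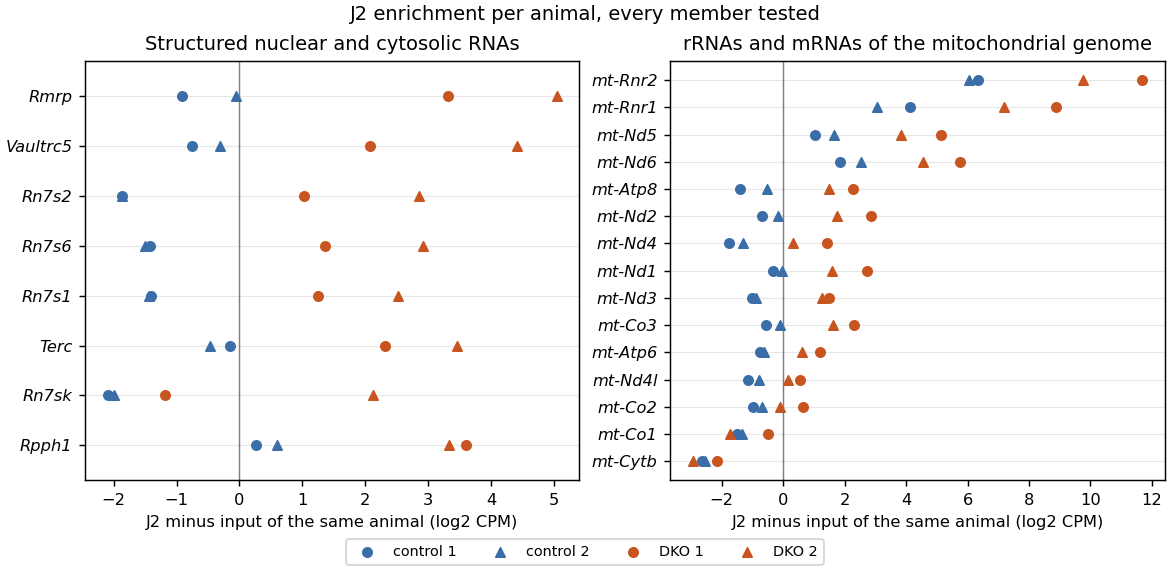
J2 minus input of the same animal (log2 CPM) for the 8 tested structured RNAs (left) and the 2 ribosomal and 13 messenger RNAs of the mitochondrial genome (right), with control in blue, DKO in orange, circles for animal 1 and triangles for animal 2. All 8 structured RNAs and 13 of the 15 mitochondrial genes have both DKO animals to the right of both controls. mt-Co1 and mt-Cytb overlap.

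RNA of the mitochondrial genome was the next group. Both strands of this genome are transcribed along most of its length, and the counts do not use strand, so RNA of either strand is included in each gene. The ribosomal RNA of the small subunit, mt-Rnr1, was called higher. It had 41, 129, 26 and 43 input counts and 881, 963, 4271 and 1555 J2 counts. Ribosomal RNA was depleted during library preparation, so these levels are not those in the cell. Its J2 minus input values were 4.14 and 3.05 in control against 8.87 and 7.20 in DKO, a difference of 4.76 (SE 0.83, adjusted p 0.0385). The large-subunit RNA mt-Rnr2 had 9278, 11628, 62730 and 18221 J2 counts on 57 to 197 in input. Its difference was the same size but did not pass (4.76, SE 1.04, adjusted p 0.0550). The first DKO animal was the higher for both.

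All 13 mitochondrial messenger RNAs had a difference above 0 (median 2.38), in 11 both DKO animals lay above both controls (27.4% of all genes), and 3 were called higher (0.772% of all genes): mt-Atp8, mt-Co3 and mt-Nd3. mt-Atp8, a subunit of the ATP synthase, had 187, 162, 129 and 145 input counts and 80, 99, 204 and 96 J2 counts. Per animal, J2 minus input was -1.40 and -0.53 in control against 2.27 and 1.49 in DKO, a difference of 2.93 (SE 0.47, adjusted p 0.0342). mt-Co3, a subunit of cytochrome c oxidase, differed by 2.35 (SE 0.47, adjusted p 0.0453). mt-Nd3, a subunit of complex I, differed by 2.38 (SE 0.42, adjusted p 0.0385). Nearly identical nuclear copies cover 99.9% of mt-Co3 and 99.1% of mt-Nd3, so reads of these genes could be split between places. All 3 called genes lie between mt-Co1 and mt-Nd4 and were counted far less often than either. In the first control input library mt-Co1 had 190585 counts and mt-Nd4 32267. There mt-Atp8, mt-Co3 and mt-Nd3 had 187, 977 and 101. The part of reads aligned to several places in these 3 calls was not tested.

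The largest difference in this list was not a call. mt-Nd5, another complex I subunit, had 116150 and 138299 J2 counts in control against 403636 and 116279 in DKO, with J2 minus input values of 1.03 and 1.65 against 5.14 and 3.82. Its difference was 3.31 (SE 1.52, adjusted p 0.213). mt-Nd6, the only protein-coding gene on the light strand, had J2 minus input values of 1.83 and 2.54 in control against 5.75 and 4.55 in DKO (difference 3.09, SE 1.00, adjusted p 0.112). These 2 neighbours were the only mitochondrial messenger RNAs above input in both control animals. At the other end, mt-Cytb had a difference of 0.11 (SE 0.80, adjusted p 0.943) with values of -2.64 and -2.55 in control against -2.16 and -2.94 in DKO. The differences of the mitochondrial genes thus ranged widely.

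As a share of all gene-assigned counts, mitochondrial messenger RNA took 4.32% and 4.22% of control input, 3.26% and 3.21% of DKO input, 2.13% and 2.67% of control J2 against 11.96% and 8.02% of DKO J2. The log2 ratio of the J2 share to the input share differed by 2.44 between the genotypes. Small RNAs other than nucleolar and spliceosomal ones, led by Rpph1 and Rn7sk, took 1.58% to 2.14% of input, 0.739% and 0.914% of control J2 against 3.88% and 10.2% of DKO J2, a difference of 3.31 in the log2 ratio. Long noncoding RNA took 4.23% and 4.74% of control input and 9.76% and 9.18% of DKO input. Its share of J2 was 1.61% and 1.23% in control against 11.97% and 13.4% in DKO, a difference of 2.09 in the log2 ratio. Most of the DKO share was 1 transcript, Gm26917, with 663135 and 312836 J2 counts in DKO (difference 2.91, SE 2.01, adjusted p 0.386). Of 1225 long noncoding RNA genes tested, 492 had a difference above 0 and 733 below. Their median was -0.56, and 0.70 when groups with at most 3 counts in every library were set to that floor. Called were 3 higher and 9 lower (0.245% and 0.735%, against 0.772% and 1.94% of all genes).

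Protein-coding RNA of the nuclear genome took 94.5% and 94.1% of control J2, 70.5% and 66.5% of DKO J2 and 84.7% to 88.6% of input (difference of -0.41 in the log2 ratio). For each of these classes the exact two-sided permutation p over the 4 animals was 0.3333, the smallest that 2 against 2 allows. The shares are parts of a whole: a class that takes more of a library lowers the others, and TMM scaling is computed to limit this for single genes.

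**Figure D3:**
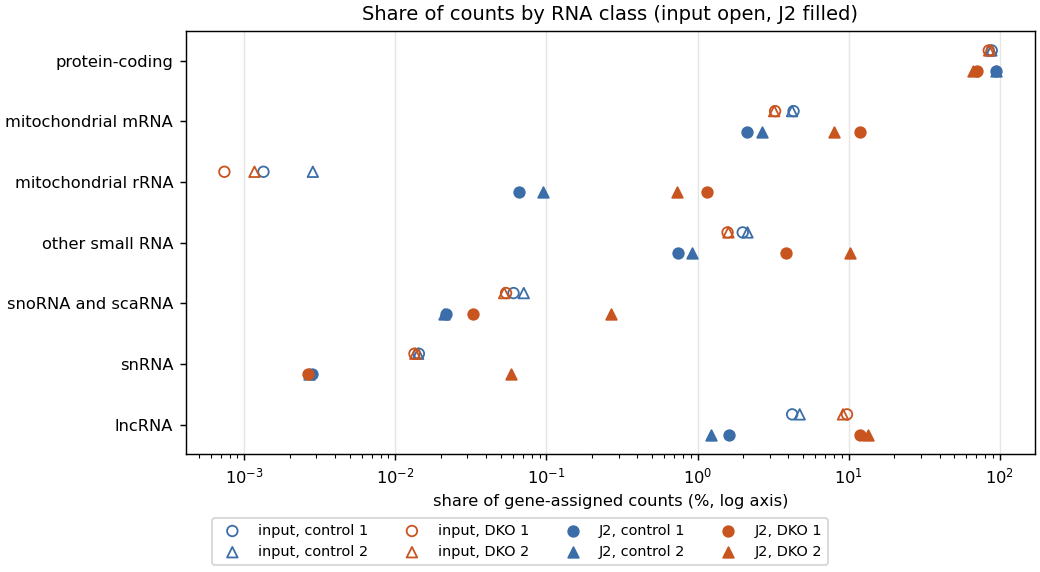
Share of gene-assigned counts (%, log axis) by RNA class in the 4 input (open) and 4 J2 (filled) libraries, control in blue and DKO in orange, circles for animal 1 and triangles for animal 2. Mitochondrial RNA, long noncoding RNA and other small RNA took larger shares of both DKO J2 libraries than of both control J2 libraries, while protein-coding RNA took a smaller one. For snoRNA and snRNA only the second DKO library stands far from the controls.

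Small nucleolar RNAs, which guide the chemical modification of ribosomal RNA, were split. Of the 49 snoRNA and scaRNA genes tested, 3 were called higher and 2 lower (6.12% and 4.08%, against 0.772% and 1.94% of all genes), and 24 had a difference above 0. The median was -0.15, and 1.68 when genes at the floor (at most 3 counts in every library of a group) are set to their bound, so the list's sign depends on genes with almost no counts. Snora23, an H/ACA snoRNA that lies at chr7:110046364-110046547 (plus strand), was among the genes called higher. It is shown in the same way as Rmrp above.
Snora23: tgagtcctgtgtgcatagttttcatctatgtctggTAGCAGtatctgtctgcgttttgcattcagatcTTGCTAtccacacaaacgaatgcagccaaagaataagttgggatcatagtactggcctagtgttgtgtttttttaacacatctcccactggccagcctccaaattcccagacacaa
Snora23 had 553, 813, 616 and 579 input counts and 187, 166, 449 and 1833 J2 counts. J2 minus input, animal by animal, was -1.76 and -2.10 in control against 1.173 and 3.76 in DKO, a difference of 4.85 (SE 0.91, adjusted p 0.0424). Without the second DKO animal it was 3.14. Gm25395 and Gm25291 were also called higher (4.46, SE 0.69, and 2.97, SE 0.62), and Gm24357 was called lower on 74 and 69 J2 counts in control against 2 and 0 in DKO, a bound of -2.12. For Gm24161, the other gene called lower, both DKO J2 libraries held 0 counts against 41 and 32 in control, a bound of -1.60. Gm22154 had the highest fitted value (adjusted p 0.0687) but 0 and 1 J2 counts in control. With 3 counts per library there its difference is 4.84, a bound without a test. Snora23 and Gm25395 were thus above input in both DKO animals. Gm24161 had only 13 and 10 input counts in DKO, so how far below input it lay there cannot be told.

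The snoRNA share of the counts was 0.0217% and 0.0208% in control J2 against 0.0328% and 0.267% in DKO J2. The snRNA share was 0.00281% and 0.00268% in control J2, 0.00263% in the first DKO animal and 0.0586% in the second. Of 34 snRNA genes tested, 0 were called and 9 had a fitted difference above 0. Their median was -1.92, and 1.96 when genes at the floor are set to their bound, so its sign depends on genes with almost no counts. Their extremes, Gm24265 and Gm25968, each had 0 J2 counts in both animals of a genotype. The host genes that carry snoRNAs in their introns had a median difference of 2.43 over 19 tested, with 0 called in either direction. When the second DKO animal was left out that median was 0.53. Snhg5 had the highest value (4.66, SE 1.57, adjusted p 0.121), with J2 minus input values of -1.38, -1.99, -0.95 and 3.35. Nop56, a core protein of C/D snoRNPs, was above input in both DKO animals (1.85 and 3.82) and below it in both controls (-0.41 and -0.58), at a difference of 3.82 (SE 0.98, adjusted p 0.0735).

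By the naming rule (called, at least 50 counts per library on average, a gene name that is not of the Gm or Rik kind, groups that do not overlap) 78 genes were higher and 267 lower. The 12 with the highest differences included 5 noncoding RNAs already described besides mt-Rnr1, namely Snora23, Rn7s2, Rn7s6, Rn7s1 and Terc. The other 6 were protein-coding: Cyp2c68, Eid3, Alpk3, Pear1, Baiap3 and Actr5. Across the 24 genes of both directions the adjusted p ran from 0.0291 to 0.0439, and from 0.0712 to 0.0777 with the block.

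Eid3, a gene without introns that encodes an inhibitor of p300-dependent transcription, had nearly level input counts of 79, 95, 94 and 96. J2 counts were 57 and 23 in control against 169 and 391 in DKO. Its J2 minus input values were -0.66, -1.77, 2.45 and 4.10, a difference of 4.65 (SE 0.73, adjusted p 0.0341). Alpk3, a kinase-family gene of striated muscle, had few counts: 111, 137, 22 and 31 in input and 25, 20, 22 and 39 in J2. Its difference was 4.58 (SE 0.59, adjusted p 0.0291). Actr5, a subunit of the INO80 chromatin remodeller, had 76, 73, 53 and 63 input counts and 48, 37, 53 and 90 J2 counts (difference 3.05, SE 0.54, adjusted p 0.0385).

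Pear1, a receptor of the platelet membrane, had 16 and 22 input counts in control against 94 and 128 in DKO, and J2 counts of 8, 3, 126 and 57. Set against its own input, each J2 library gave -0.99 and -2.04 in control against 2.03 and 0.92 in DKO (difference 3.35, SE 0.65, adjusted p 0.0439). With thinned counts the difference was 6.66 for Pear1 and 7.04 for Alpk3. Baiap3, which acts in the release of dense-core vesicles, differed by 3.11 (SE 0.59, adjusted p 0.0434), and its exons overlap Tsr3 on the opposite strand. Cyp2c68, a cytochrome P450 gene, had 673 and 974 input counts in control against 0 in both DKO animals, with J2 counts of 290, 286, 4 and 5. Its difference is a bound of 3.99 against 3 counts per library, and its whole transcript is nearly identical to other Cyp2c genes, so its counts are uncertain. Eid3 thus had level input and higher J2 counts in DKO, whereas Alpk3 and Cyp2c68 had fewer input counts in DKO.

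**Figure D4:**
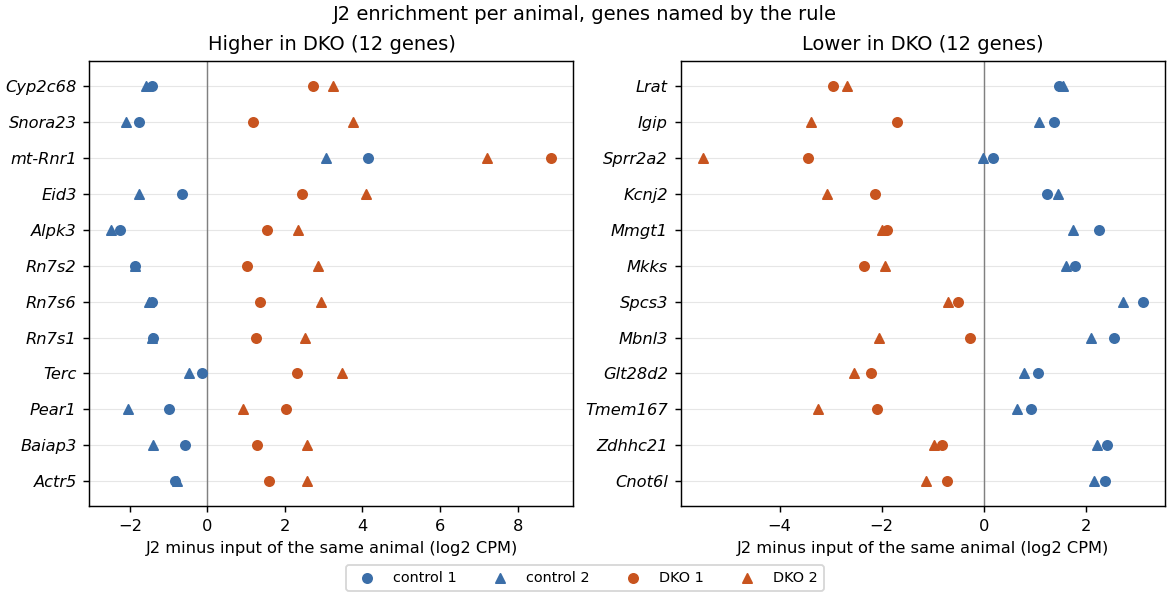
J2 minus input of the same animal (log2 CPM) for the 12 genes with the highest (left) and the 12 with the lowest (right) difference named by the rule, control in blue, DKO in orange, circles for animal 1 and triangles for animal 2. Apart from mt-Rnr1, the genes on the left lie below 0 in control and above 0 in DKO. The genes on the right lie below 0 in both DKO animals, and all but Sprr2a2 lie above 0 in both controls.

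Of the 309 genes with lower J2 enrichment in DKO, 276 were protein-coding. So were 87 of the 123 with higher enrichment and 12886 of all 15923 genes tested. Spcs3, a subunit of the signal peptidase, had 488, 492, 272 and 342 input counts, and 4913 and 2918 J2 counts in control against 62 and 49 in DKO. Per animal, J2 minus input was 3.12 and 2.73 in control against -0.50 and -0.69 in DKO, a difference of -3.55 (SE 0.39, adjusted p 0.0291). Mmgt1, a subunit of the ER membrane protein complex, had 1287 and 779 J2 counts in control against 5 and 7 in DKO (difference -4.13, SE 0.54, adjusted p 0.0291). Scaled to depth, these are 91.6 and 65.5 CPM against 1.34 and 2.29 CPM. For genes lower in DKO, raw J2 counts here and below overstate the contrast, since the DKO J2 libraries were shallower. Tmem167, a small membrane protein of the Golgi, had 1506 and 1143 against 35 and 14 (difference -3.38, SE 0.44, adjusted p 0.0291). Exons of Spcs3 overlap Asb5 and those of Tmem167 overlap Xrcc4, each on the opposite strand.

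Zdhhc21, an enzyme that attaches palmitate to proteins, was more frequent in DKO input (932 and 954 counts) than in control input (542 and 549). In J2 it had 3368 and 2294 counts in control against 170 and 112 in DKO, with J2 minus input values of 2.42 and 2.23 against -0.82 and -0.98. Its difference was -3.23 (SE 0.37, adjusted p 0.0291), so its J2 enrichment fell while its input level was higher. Cnot6l, a deadenylase of the CCR4-NOT complex, had values of 2.39 and 2.16 in control against -0.72 and -1.13 in DKO (difference -3.22, SE 0.36, adjusted p 0.0291). Mbnl3, a muscleblind splicing regulator, had 2.56 and 2.10 against -0.27 and -2.05 (difference -3.43, SE 0.55, adjusted p 0.0342). For these 3 genes the pulldown raised the share of the transcript in control and lowered it in DKO.

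Kcnj2, an inward-rectifier potassium channel, had 387 and 351 J2 counts in control against 4 and 2 in DKO, on 62 to 143 input counts (difference -4.14, SE 0.48). Mkks, a chaperonin-like protein of Bardet-Biedl syndrome, had 746 and 685 J2 counts against 7 and 11 (difference -3.90, SE 0.46), and Glt28d2, a glycosyltransferase-domain gene, 299 and 203 against 8 and 5 (difference -3.40, SE 0.43). The adjusted p was 0.0291 for each of these 3. Sprr2a2, a small proline-rich protein, had 27 and 56 input counts in control against 259 and 309 in DKO, and J2 counts of 36, 49, 7 and 1. Its difference was -4.34 (SE 0.80, adjusted p 0.0411), and its transcript is wholly shared with other Sprr2a genes.

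For 2 named genes both DKO J2 libraries were at the floor, so the difference is given as a bound against 3 counts per library. Lrat, which makes retinyl esters from absorbed vitamin A, had 348 and 300 input counts in control against 15 and 41 in DKO. Its J2 counts were 1125 and 782 in control against 0 and 1 in DKO, a bound of -2.82. Igip had 188 and 139 J2 counts in control against 1 and 0 in DKO, a bound of -2.08. The fitted value for Lrat went from -5.32 to -8.39 without the second DKO animal, and that for Igip from -4.58 to -8.55 without the first. In all, 23 of the 309 genes called lower had both DKO J2 libraries at the floor.

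Genes called in the 2 directions differed in length and base composition. The 276 protein-coding ones had a median GC content of 42.7%, a median transcript length of 5066 bases and a median 3′ untranslated region of 2815 bases. The 87 protein-coding genes called higher had 55.6%, 2706 bases and 389 bases, and all protein-coding genes tested had 49.9%, 3383 bases and 945 bases. Cnot6l (37.6% GC) and Zdhhc21 (38.9% GC, 8763 bases) are examples of the first set, and Actr5 (59.1% GC) and Pear1 (57.6% GC) of the second.

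The same tilt was present over all genes. From the quartile of lowest GC content to the highest, the median difference of J2 enrichment was -0.60, -0.23, 0.11 and 0.49. The lowest quartile held 201 of the genes called lower and 20 called higher, and the highest held 7 and 63. From the shortest to the longest quartile of 3′ untranslated regions the medians were 0.54, 0.36, -0.03 and -0.66, with 18, 28, 51 and 175 genes called lower. Per animal, the median J2 minus input value of the longest quartile exceeded that of the shortest by 1.32 and 1.26 in control and by 0.36 and -0.04 in DKO. By length of the whole transcript the longest quartile exceeded the shortest by 1.41 and 1.43 in control and by 1.02 and 0.55 in DKO. For GC content the highest quartile exceeded the lowest by 0.11 and 0.20 in control and by 1.31 and 0.87 in DKO. The groups did not overlap in any of these 3 measures, and the exact two-sided permutation p over 4 animals was 0.3333, the smallest possible. When GC content and length were fitted as offsets in each library, 1 gene was called in place of 432, at an adjusted p of 0.0438. All 432 genes kept their direction. The difference went from 4.65 to 4.68 for Eid3, from -3.90 to -3.55 for Mkks and from -3.22 to -2.26 for Cnot6l. The part of GC content and length in the results was otherwise not tested.

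**Figure D5:**
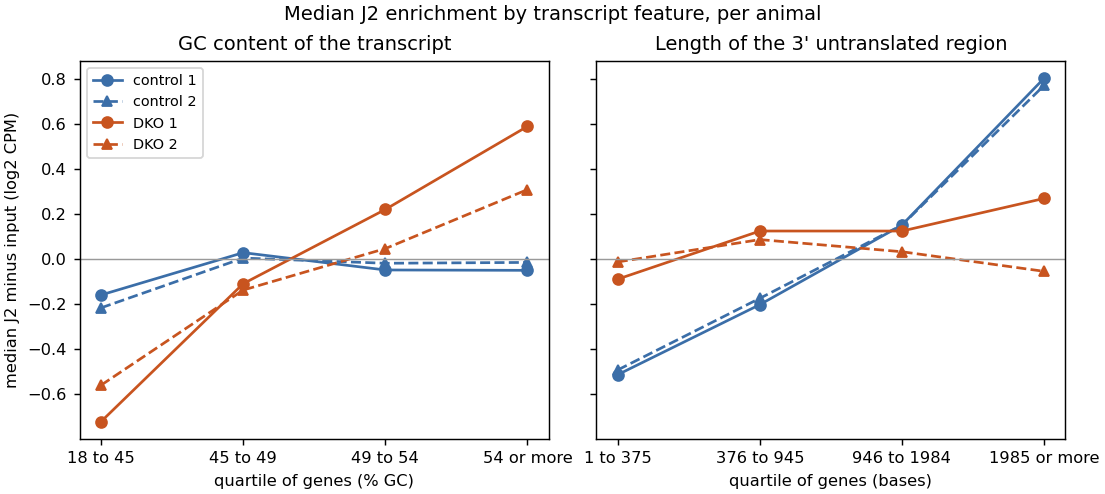
Median J2 minus input (log2 CPM) per animal in quartiles of genes by GC content of the transcript (left, % GC) and by length of the 3′ untranslated region of protein-coding genes (right, bases), control in blue, DKO in orange. In control the line is nearly flat over GC content and rises with the length of the untranslated region. In DKO it rises with GC content and is nearly flat over the length.

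Transcripts with a long inverted repeat, which can fold back into a double strand, were examined as a further feature. Among the genes tested, 223 had within the longest transcript an inverted repeat of at least 100 bases at 75% identity or more. In these the median J2 minus input value was 0.59 and 0.63 in the controls and 0.36 and 0.42 in the DKO animals, against -0.06 and -0.06 and -0.02 and -0.07 for the remaining 15651 genes. They were above the other genes in all 4 animals. The median difference between genotypes was -0.37, with 2 called higher and 9 lower (0.897% and 4.04%, against 0.772% and 1.94% of all genes). The quartile of longest transcripts had J2 minus input medians of 0.66 and 0.65 in control and 0.35 and 0.12 in DKO. Of its genes 0.378% were called higher and 4.26% lower. The part of length in the values of the inverted-repeat genes was not tested. For genes whose exons overlap a gene on the opposite strand (4683 genes), the median difference was 0.02, with 29 called higher and 84 lower. The shares called were 0.619% and 1.79%, near the 0.772% and 1.94% of all genes.

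Genes of the response to double-stranded RNA were compared by list. The 36 interferon-induced genes had a median difference of 0.10, with 20 above 0 and 0 called. Their levels did differ: the median log2 change from control to DKO was 3.0955 in input and 3.005 in J2. The similar changes nearly cancel in the difference of enrichment. Their values ran from -2.54 for Ifi44 (SE 0.68, adjusted p 0.0792) to 1.85 for Mx2 (SE 0.65, adjusted p 0.131). For Ifi44, input and enrichment differed in opposite directions: it had 64 and 20 input counts in control against 1681 and 1628 in DKO, while its J2 minus input values were 0.71 and 1.79 against -1.45 and -1.41. No gene of this list passed the test. In both DKO animals 10 of the 36 were above both controls and 10 were below, against 27.4% and 33.1% of all genes.

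Sensors and binders of double-stranded RNA had 23 of 24 genes tested, a median of -0.10, and 2 called lower, Strbp and Tlr3 (8.70% of the list, against 1.94% of all genes). Ilf2 had the highest value (1.92, SE 0.59, adjusted p 0.104). Tlr3, the endosomal receptor for double-stranded RNA, had 469 and 431 input counts in control against 873 and 756 in DKO, and J2 counts of 614, 443, 68 and 57. Its J2 minus input values were 0.18 and 0.21 against -2.04 and -1.61 (difference -2.04, SE 0.34, adjusted p 0.0349), and -1.36 with the offset for GC content and length. Strbp, a double-stranded RNA-binding protein first described in spermatids, had 1.67 and 1.74 against -0.76 and -1.41 (difference -2.79, SE 0.36, adjusted p 0.0291). The editing enzyme Adar differed by 0.42 (SE 0.42, adjusted p 0.556), the MDA5 gene Ifih1 by -0.26 (SE 0.52, adjusted p 0.783) and the PKR gene Eif2ak2 by -0.77 (SE 0.37, adjusted p 0.229).

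Of the other families described here, only the Zfp genes held calls. Of 314 tested Zfp genes, which encode zinc finger proteins, 11 were called lower and 1 higher. These were 3.503% and 0.318%, against 1.94% and 0.772% of all genes, and the median was -0.19. Zfp644, called lower, had 3458 and 3386 J2 counts in control against 96 and 60 in DKO (difference -3.05, SE 0.36, adjusted p 0.0291). Zfp622 was called higher (1.49, SE 0.31, adjusted p 0.0499). Zfp69 had the highest value (3.56, SE 1.22, adjusted p 0.125), and Zfp72 had the lowest fitted value, on 0 counts in both DKO J2 libraries. Of 79 ribosomal protein genes 0 were called (median -0.03, up to 1.70 for Rpl35). Rpl13a had the lowest fitted value, but its 1 and 1 J2 counts in DKO allow only a bound of -0.49. Replication-dependent histone genes were above 0 in 45 of 48 (median 1.28), with 38 above both controls in both DKO animals (27.4% of all genes) and 0 called. Hist1h4i was highest (3.34, SE 1.15, adjusted p 0.126), and the lowest fitted value was that of Hist1h2ah, whose 0 counts in both DKO J2 libraries leave its difference undetermined. Among long noncoding RNAs retained in the nucleus, 0 of 10 were called, from -2.41 for Tug1 (SE 0.59, adjusted p 0.0671) to a fitted 4.03 for Meg3 (SE 1.102, adjusted p 0.0815), which had 3 J2 counts in each control and 9 and 27 in DKO. Malat1 differed by 1.74 (SE 0.94, adjusted p 0.278) and Neat1 by 0.24 (SE 0.52, adjusted p 0.803). Where 0 genes of a list were called, the table of all genes had 4120 with an unadjusted p under 0.05.

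Markers of the epithelial cell types served as a check of the material. Enterocyte markers summed to 34441 to 47851 CPM in the input libraries, while leukocyte markers summed to 98.6 to 156 CPM and stromal and endothelial markers to 2.72 to 7.87 CPM. In J2, the enterocyte sum was 43244 CPM in the first DKO animal and 7690 CPM in the second, against 30958 and 33528 CPM in control. The stromal and endothelial sum was 187 and 37.9 CPM in DKO J2 and 4.49 and 23.1 CPM in control J2, and the leukocyte sum was 74.8 and 160 CPM against 76.3 and 80.1 CPM. In input, stem cell markers summed to 875 and 870 CPM in control and 451 and 523 CPM in DKO. Proliferation markers summed to 622 and 527 CPM against 189 and 240 CPM, and tuft markers to 73.5 and 85.1 CPM against 172 and 168 CPM. The enterocyte and leukocyte sums in J2 moved with single libraries. The stromal and endothelial sum in J2 was above both controls in both DKO animals, and highest in the first. The last 3 sums, in input, moved with genotype. The part of all these sums in the results was not tested. In bulk RNA, fewer cells of a type and less RNA per cell cannot be told apart.

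Among 101 tested genes of the epithelial and other cell type lists 0 were called lower and 1 higher, against 1.94% and 0.772% of all genes. The gene called higher was Lgr5, the receptor that marks intestinal stem cells. Lgr5 had 150 and 182 input counts in control against 33 and 56 in DKO, and J2 counts of 201, 183, 65 and 59. The same-animal J2 minus input values were 0.21 and 0.18 in control against 2.53 and 2.13 in DKO, a difference of 2.16 (SE 0.40, adjusted p 0.0416). The 15 stem cell genes had a median of 0.35, and Ephb2 had the lowest value (-1.37, SE 0.47, adjusted p 0.126). Enterocyte genes had a median of 0.16 with 0 of 15 called, and the 2 DKO animals differed widely: Apob, which packages chylomicrons, had J2 minus input values of 0.49 and 0.30 in control against -0.64 and -2.92 in DKO (difference -1.57, SE 1.38, adjusted p 0.499). Goblet (median 0.47), Paneth (1.174), enteroendocrine (0.77), tuft (-0.49), proliferation (1.07), leukocyte (1.47) and stromal and endothelial genes (2.68 over 5 tested) had 0 called. Values ran from -0.35 for Muc2 to 1.39 for Spdef in the goblet list, from -1.30 for Tph1 to 2.19 for Neurod1 in the enteroendocrine list and from -1.87 for Rgs13 to 1.44 for Sh2d6 in the tuft list. They ran from -0.01 for Jchain to 2.13 for Tyrobp in the leukocyte list and from -1.50 for Dcn to 3.41 for Col3a1 in the stromal and endothelial list. Vil1 was the highest of the enterocyte genes (1.18). The leukocyte median was 0.64 without the second DKO animal, and the stromal and endothelial median 1.1 without the first. In the Paneth list the values ran from -1.08 for Lyz1 (SE 0.58, adjusted p 0.279) to 4.30 for Pla2g2a (SE 1.095, adjusted p 0.0721). For proliferation, Aurkb was highest (2.88, SE 0.86, adjusted p 0.0945) and Bub1 lowest (-0.89, SE 0.85, adjusted p 0.535).

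Values of the same genes with the antibody K1 are set beside these. The K1 comparison uses the same 4 input libraries, so likeness between the antibodies is not independent. The K1 comparison called 870 of 15908 genes (5.47%), of which 218 were higher (1.37%) and 652 lower (4.1%). The K1 difference was 4.10 for Rn7s2, 1.63 for Terc, 5.38 for mt-Rnr1, 2.54 for Snora23 and 5.19 for Eid3. It was -3.12 for Cnot6l, -2.14 for Spcs3, -2.07 for Kcnj2, -1.56 for Mmgt1 and -1.55 for Lrat. Of these genes, Terc, Mmgt1 and Lrat did not pass the K1 test (edgeR quasi-likelihood, adjusted p 0.125, 0.101 and 0.265), and the rest did. The test of the difference between the antibodies, in which the input libraries cancel, called 0 of 14285 genes (edgeR quasi-likelihood test), and 506 had an unadjusted p under 0.05. DESeq2 called 1. For mt-Nd5 the K1 difference was 4.31 and for mt-Cytb 1.45, against 3.31 and 0.11 with J2. The K1 value passed the K1 test for mt-Nd5 and not for mt-Cytb. The histone list had a median of 1.28 with J2 and -0.37 with K1, and the difference between the antibodies was not called for any of its genes.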

How the data were processed

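RNA was measured in mouse intestinal epithelium by sequencing input and antibody pulldowns, 1 library per antibody and animal. Per the labels' protocols, random hexamers primed the cDNA, ribosomal RNA was removed, the kit kept the strand, and paired reads had molecular identifiers. The authors deposited raw counts of reads for each gene, and the file names mark the counting as not using strand. The submitters' processing notes name STAR 2.7.10b, SAMtools 1.17, UMI-tools 1.1.4, HTSeq 2.0.2, DESeq2 1.40.1 and edgeR 3.42.2, with builds mm10 and GRCm38.p4, without saying which step each served. Each file holds 48526 gene rows, and 5 closing rows (reads outside genes, ambiguous or aligned to several places) entered neither the library sizes nor the tests. Names, coordinates and transcripts came from GENCODE M21 (GRCm38), which matched 48144 identifiers without the version suffix.

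Counts were tested with edgeR 4.0.16 (quasi-likelihood, TMM, a minimum count of 10 in filterByExpr, threshold 0.05 after Benjamini-Hochberg adjustment), with 4 group means and 4 residual degrees of freedom. The standard error (SE) is the fold change divided by the root of F. Per-animal values are log2 CPM with a prior count of 2, J2 minus input of the same animal. The labels give input and J2 of the same replicate number the same animal code. Deviations from the group means correlated between them at 0.299 in control and 0.260 in DKO, so the animal block (2 residual degrees of freedom) is printed beside the results. Groups with at most 3 counts in every library are at the floor, and bounds against it cover counting error only. In simulated counts for this comparison (15352 genes), the test without the block recovered 0% of 50 genes changed 2-fold, 20% of those changed 4-fold, 64% of 8-fold and 88% of 16-fold, with 4 false calls. With the block it recovered 2%, 18%, 64% and 84%, also with 4 false calls. Each simulated gene had the same spread in all libraries and no animal effect. The wider spread within the DKO J2 pair was thus left out, and the false calls do not measure those in the data.

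The members and lists were chosen with earlier results of these data known, and the features of untranslated regions were added after values had been seen. Named were Kat2a and Kat2b, then the 12 highest and 12 lowest differences by the rule in the text, and in each list described the extremes and called members (4 at most, but more for structured, mitochondrial and small nucleolar RNAs). Nop56, Gm26917, Malat1, Neat1, Adar, Ifih1, Eif2ak2, mt-Nd6, Rn7sk and Vaultrc5 were named outside this rule, after their values were seen. Of the list symbols, 4 were not matched. Inverted repeats and near-identical copies were found with blastn, folds with RNAfold. Alternatives were other scaling, filters, tools, thinning to the smallest library, all 12 libraries, leaving out each animal, and offsets for GC content and length.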

Additional observations from a re-analysis of the deposited data

How the results depend on the processing

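The count of 432 genes (123 higher, 309 lower) depended on the processing more than the directions did: every called gene that an alternative tested kept its sign there. With the animal as a block (the replicate block) 0 genes were called, 0 higher and 0 lower, and likewise with thinned counts and the block, and with the GC content and length offset and the block. The offset alone gave 1 call, 0 higher and 1 lower. Thinned counts gave 169 (31 higher, 138 lower), limma voom with quality weights 128 (35, 93) and DESeq2 2018 (746, 1272). Without TMM there were 669 (70, 599), so 10.5% of calls were higher in place of 28.5%. Without a low-count filter there were 2453 (776, 1677), with a mean of at least 50 counts 743 (193, 550), and with all 12 libraries 898 (285, 613). Leaving out 1 animal at a time gave 0 to 6990 calls, 0 to 3048 higher and 0 to 3942 lower. The remaining lone animal of a group is then assumed to vary like the others.

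For J2 against K1, with 0 calls, the replicate block gave 1, DESeq2 1 and leaving out 1 animal 0 to 1227, the last without the first DKO animal. The protein-coding share moved from -0.41 to -0.26 when mitochondrial and ribosomal RNA genes were left out of the total. The value for Kat2a changed sign with thinned counts (0.28, and 0.26 with the block). That for Kat2b did so with thinned counts (-0.16 in both fits), without the low-count filter (-0.21), and when the second control animal (-0.04) or the first DKO animal (-0.068) was left out, in a range of -0.068 to 0.20 over the animals. The cause was not tested in these cases. Lrat was -8.39 without the second DKO animal, Igip -8.55 without the first, and thinned counts gave 7.04 for Alpk3 and 6.66 for Pear1. Medians of all genes moved by over 0.1 without either DKO animal (-0.14 and -0.11), without the second control animal (-0.14), without the filter (-0.29) and with thinning (0.11). Counting error at 2691285 counts limits what the second DKO J2 library can show for sparse genes. The GC and length offset and the fits that join thinning or an offset with the block were chosen after seeing the data.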
